A study of Arabidopsis thaliana with 4 samples.

Results

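The pseudo-response regulator (PRR) genes of the *Arabidopsis* circadian clock were followed in leaf RNA of uninfected plants. The set consists of 5 genes, *PRR9* (AT2G46790), *PRR7* (AT5G02810), *PRR5* (AT5G24470), *PRR3* (AT5G60100) and *TOC1* (AT5G61380, also named *PRR1*), chosen by locus out of 32633 loci in the tables and listed here in the order in which their transcripts peak during the day. All 5 passed the minimum for testing, a mean of at least 1 FPKM (fragments counted for each kilobase of a transcript and scaled to the size of the library) over the libraries. Leaves came from 3-week-old WT (Col-0) plants and from the *ldl1 ldl2* double mutant in the same background, which combines the T-DNA alleles *ldl1-1* and *ldl2-1* and so carries insertions in 2 genes for LSD1-like histone demethylases. No plant was treated, all grew in 12 h of light and 12 h of darkness, and each genotype had 2 libraries, numbered 1 and 2 in the labels. The hour of harvest is not given in the sources used here.

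PRR proteins carry an N-terminal domain that resembles the receiver of a two-component response regulator but lacks its phosphate-accepting aspartate, and a C-terminal CCT domain through which they bind DNA. They repress transcription, foremost of *CCA1* and *LHY*, the MYB genes of the morning, and they are made in succession through the day, with *PRR9* first after dawn, *PRR7* and *PRR5* following it and *TOC1* near dusk. In turn CCA1 and LHY repress evening genes such as *TOC1* through the evening element of their promoters, RVE8 and its LNK coactivators act through the same element as activators, and the evening complex of ELF3, ELF4 and LUX represses *PRR9*. LDL1 and LDL2 have been described in a complex with HDA6 and with CCA1, LHY and TOC1, which raises the question of whether PRR transcripts differ in plants that lack both demethylases.

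The upstream sequences of the members are shown because the evening element and the G-box bind clock factors and other light-regulated factors, and because *PRR5*, *PRR3* and *TOC1* moved together. In the 500 bases before the annotated gene start (RefSeq annotation of TAIR10.1), searched on both strands, the evening element AAAATATCT was found before *PRR5* and *TOC1*, and in 4.44% of 27443 protein-coding genes. The G-box CACGTG was found before *PRR9* and *PRR7*, and in 9.35% of all. The CCA1-binding site AAAAATCT, which is not contained in the evening element, was found before *PRR9* and *PRR5* (12.5% of all), the morning element CCACAC before the same genes (11.9% of all) and the LUX-binding site as GATTCG before *PRR9* and *TOC1* (15.4% of all). Its other form GATACG was in none of the 5 (8.76% of all), and none of the 6 motifs was found before *PRR3*. The stretches with the evening elements and G-boxes follow, read 5′ to 3′ along each gene's strand (plus for *PRR9* and *TOC1*, minus for *PRR7* and *PRR5*), with every motif match in capitals. The evening elements and the CCA1-binding site of *PRR5* lie on the opposite strand of the gene and appear as their reverse complements, as does GATTCG of *PRR9*. A match is a match of letters only.
*PRR9*, morning element and G-box, chr2:19232321-19232388: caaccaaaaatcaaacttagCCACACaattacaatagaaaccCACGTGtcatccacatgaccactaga
*PRR9*, G-box and GATTCG, chr2:19232415-19232502: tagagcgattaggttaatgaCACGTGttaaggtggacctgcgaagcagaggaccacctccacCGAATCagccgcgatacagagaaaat
*PRR7*, G-box, chr5:642206-642251: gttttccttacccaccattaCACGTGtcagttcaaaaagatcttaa
*PRR5*, evening element, chr5:8358810-8358858: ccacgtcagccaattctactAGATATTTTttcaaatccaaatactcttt
*PRR5*, CCA1-binding site, evening element and morning element, chr5:8358692-8358764: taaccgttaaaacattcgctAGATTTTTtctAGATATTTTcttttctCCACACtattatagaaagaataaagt
*TOC1*, evening element, chr5:24674792-24674840: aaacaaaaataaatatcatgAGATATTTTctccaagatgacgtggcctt

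Libraries that shared a replicate number were closer to each other than those that shared a genotype. Across the 16905 loci tested, log2(FPKM + 1) correlated at a Pearson's r of 0.954 within each replicate number, and at 0.846 within WT and 0.915 within the mutant. The labels give no harvest, growth or sequencing batch, so that none of these can be told apart from replicate number. Of 4 leaf markers all were high in every library, with a summed level in replicate 1 of 50148 FPKM (WT) and 41954 FPKM (mutant) and in replicate 2 of 21788 FPKM and 29328 FPKM. Of 7 markers of root, seed, flower and pollen, the seed gene *AT2S1* and the pollen gene *VGD1* were listed at 0 in every library, and the summed level was 0.441 and 1.67 FPKM in replicate 1 and 15.1 and 7.79 FPKM in replicate 2. Of these, *SEP3*, a flower gene, was listed at 0 and 0.0969 FPKM in replicate 1 and was at 4.46 and 3.13 FPKM in replicate 2. The other flower gene, *AP1*, was at 3.46 FPKM in WT replicate 2 and was listed at 0 in every other library, mutant replicate 2 included. In RNA from whole leaves, fewer cells of a type and less RNA per cell cannot be told apart. The deposited values are not counts, so that the read depth and the precision behind a low value are unknown.

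*TOC1*, *PRR3* and *PRR5*, the members whose transcripts peak latest, were low or nearly absent in both libraries numbered 1 and high in both libraries numbered 2. *PRR7* was higher in replicate 2 to a lesser degree, and *PRR9*, the member that peaks first, was at the lower level there. *TOC1* (chromosome 5 from 24674963 to 24678550), which with CCA1 and LHY forms the feedback loop that was the first described in the plant clock, gave 2.94 FPKM in WT replicate 1 against 109 FPKM in WT replicate 2, and 3.48 against 88.03 FPKM in the mutant. Replicate 2 was 37.1-fold higher in WT and 25.3-fold higher in *ldl1 ldl2*. *PRR3* (chromosome 5 from 24197971 to 24201415), which encodes a protein that protects TOC1 from degradation, gave 0.0678 against 54.4 FPKM in WT and 0.189 against 45.0 FPKM in the mutant, in the same order. *PRR5* (chromosome 5 from 8356204 to 8358546), whose protein binds TOC1 and favours its entry into the nucleus, was listed at 0 in WT replicate 1 and was at 51.0 FPKM in WT replicate 2, and it was at 0.174 and 63.9 FPKM in *ldl1 ldl2*. Both genes thus stood at 0.189 FPKM or less in each library numbered 1 and at 45.0 FPKM or more in each library numbered 2. A 0 in such tables can be a failed estimate. In WT replicate 1, 3 loci were listed at 0 that had at least 10 FPKM in each of the other libraries.

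**Figure D1:**
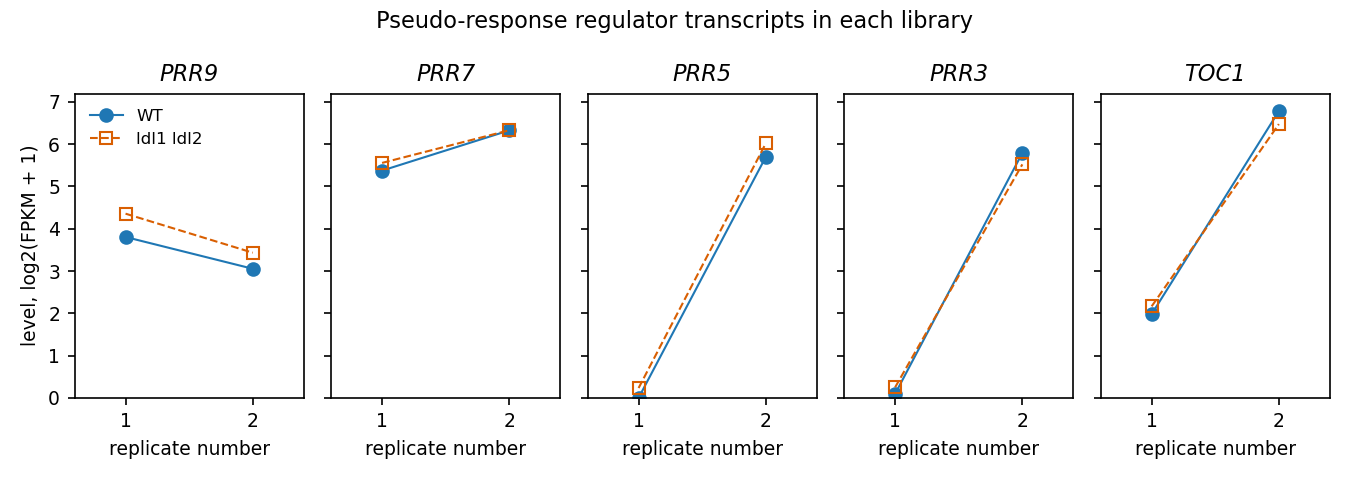
Level of each member in the 4 libraries as log2(FPKM + 1), with replicate number on the horizontal axis, 1 point for each library, filled circles for WT and open squares for *ldl1 ldl2*. Lines join the libraries of a genotype, and *PRR5*, *PRR3* and *TOC1* lie far higher in replicate 2 in both genotypes while *PRR9* lies lower there, at 7.30 against 13.0 FPKM in WT.

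*PRR7* (chromosome 5 from 637681 to 642030), which with *PRR9* represses *CCA1* and *LHY* in the day, gave 40.5 FPKM in WT replicate 1 against 79.3 FPKM in WT replicate 2, and 46.1 against 79.5 FPKM in the mutant. It was 1.96-fold higher in replicate 2 in WT and 1.72-fold higher in *ldl1 ldl2*, and the genotypes were closest to each other in replicate 2. *PRR9* (chromosome 2 from 19232607 to 19235179) gave 13.0 FPKM in WT replicate 1 against 7.30 FPKM in WT replicate 2, and 19.5 against 9.81 FPKM in the mutant. Replicate 1 was 1.78-fold higher in WT and 1.99-fold higher in *ldl1 ldl2*. No library numbered 2 reached the level of a library numbered 1 for *PRR9*, and none fell to it for the other 4 members. The share of all loci without overlap between the replicate numbers was not counted, so that this says little of a single member. No other annotated gene overlapped any of the 5.

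When the libraries numbered 2 were compared with those numbered 1 by limma over all 16905 loci, *PRR5*, *PRR3*, *TOC1* and *PRR7* passed an adjusted p of 0.05 as higher, where 6.58% of all loci did, and none of the 5 passed as lower, where 5.14% of all loci did. *PRR5* and *PRR3* reached the minimum for testing only through their levels in replicate 2, and both also passed when no minimum was set (adjusted p = 0.011 and 0.0108 from limma). On the log2(FPKM + 1) scale the difference was 5.74 for *PRR5* (95% interval 5.21 to 6.28, adjusted p = 5.71e-04 from limma), and it was 5.49 for *PRR3* (4.98 to 5.995, adjusted p = 5.71e-04 from limma) and 4.56 for *TOC1* (4.05 to 5.07, adjusted p = 0.00135 from limma). With a pseudocount of 0.1 in place of 1 the differences were 8.43 for *PRR5*, 7.82 for *PRR3* and 4.89 for *TOC1*, so that the size for the first 2 of them is set by values near 0. Among all loci tested these were the 15th, 18th and 40th highest differences. *PRR7* differed by 0.86 (0.40 to 1.33, adjusted p = 0.0427 from limma) and *PRR9* by -0.84 (-1.51 to -0.17), which did not pass (adjusted p = 0.1 from limma). The median difference of all loci was 0.138, and with each library scaled to a common median the differences were 5.67 for *PRR5*, 5.41 for *PRR3*, 4.43 for *TOC1*, 0.72 for *PRR7* and -0.97 for *PRR9*. The call of *PRR7* was lost after that scaling (adjusted p = 0.0635 from limma), without the filter on low values (adjusted p = 0.0603) and when any library was left out (adjusted p = 0.148 without WT replicate 1, 0.254 without WT replicate 2, 0.0672 without *ldl1 ldl2* replicate 1 and 0.166 without *ldl1 ldl2* replicate 2), and *PRR9* passed with genotype as a second term (adjusted p = 0.0228). For 1 gene, permuting 2 libraries against 2 in an exact test gives a two-sided p of 0.333 at the lowest. The spread in this fit is that between libraries of the same replicate number, which are of different genotypes. Its p-values and intervals thus do not measure how sets of libraries vary from set to set.

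By the simpler measure of a 2-fold difference on the log2(FPKM + 1) scale, *PRR5*, *PRR3* and *TOC1* were higher in replicate 2 in both genotypes, as were 5.02% of all loci. None of the members was 2-fold lower in both, as were 4.34% of all loci. *PRR7*, at 0.95 in WT and 0.77 in *ldl1 ldl2*, and *PRR9*, at -0.75 and -0.92, stayed within 2-fold in both genotypes. The replicate difference was thus a matter of degree between members, with 3 genes beyond 4.3 on this scale in each genotype and 2 genes under 1. The distance of a gene from the others, as the root mean square difference of log2(FPKM + 1) over the 4 libraries after centring, was lowest between *PRR5* and *PRR3* at 0.247, then *PRR3* and *TOC1* at 0.464 and *PRR5* and *TOC1* at 0.634. *PRR9* and *PRR7* were 0.870 apart, and each of them was at least 1.85 from the other 3.

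**Figure D2:**
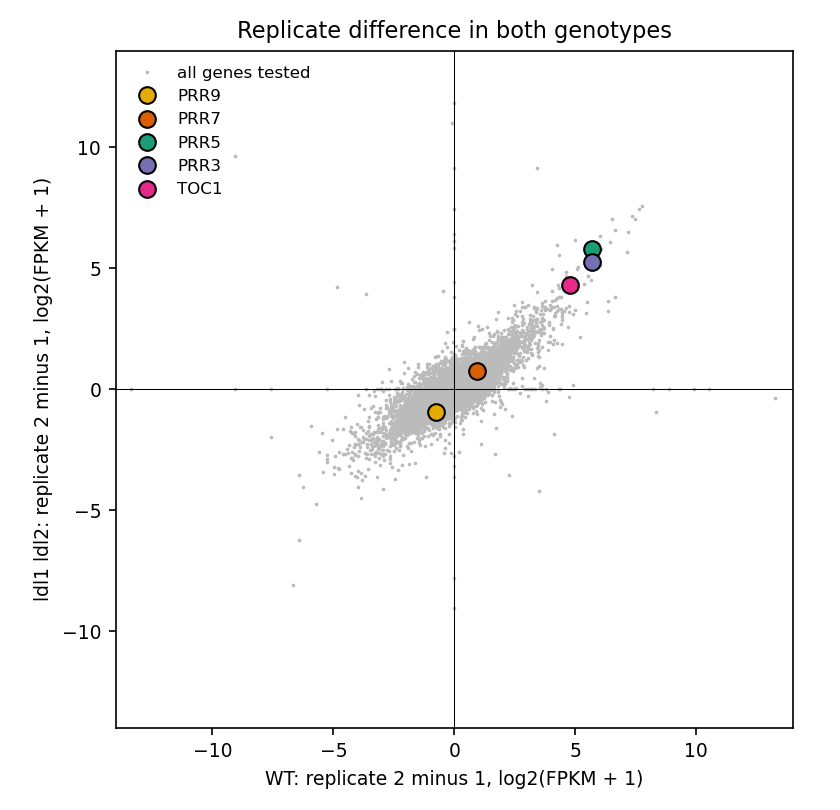
Each grey point is 1 of 16905 loci, placed by the difference of replicate 2 minus replicate 1 in WT (horizontal) and in *ldl1 ldl2* (vertical), both in log2(FPKM + 1), with the 5 members in colour. *PRR5*, *PRR3* and *TOC1* lie at the upper right at 4.80 to 5.70 in WT and 4.31 to 5.79 in *ldl1 ldl2*, while *PRR7* and *PRR9* lie within the main cloud.

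The replicate sets also differed in which PRR transcripts prevailed. Since FPKM is a level per length of transcript, the members can be set against each other within a library. Their summed level was 56.5 FPKM in WT and 69.4 FPKM in *ldl1 ldl2* replicate 1 and 301 FPKM and 286 FPKM in replicate 2. In replicate 1 *PRR7* made up 71.7% of that sum in WT and 66.4% in *ldl1 ldl2*, *PRR9* 23.0% and 28.1%, *TOC1* 5.21% and 5.02%, and *PRR3* and *PRR5* each 0.272% or less. In replicate 2 *TOC1* made up 36.2% in WT and 30.8% in *ldl1 ldl2*, *PRR7* 26.3% and 27.8%, *PRR5* 16.9% and 22.3%, *PRR3* 18.1% and 15.7% and *PRR9* 2.42% and 3.43%. The order of the levels in replicate 1 was *PRR7*, *PRR9* and *TOC1*, with gaps larger than the difference between the genotypes, then *PRR3* and *PRR5*, whose values overlapped. In replicate 2 *TOC1* was above *PRR7* in both genotypes, by less in the mutant than the spread of *TOC1* between the genotypes. *PRR5* and *PRR3* came next, changing places between the genotypes, and *PRR9* was last. *PRR7* was the only member above 40 FPKM in every library.

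**Figure D3:**
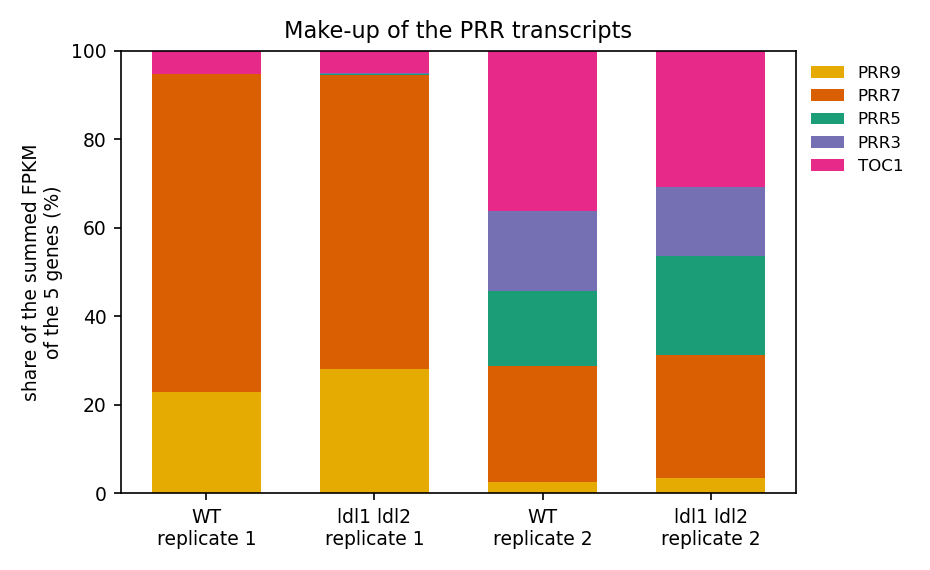
Share of each member in the summed FPKM of the 5 genes, in percent, with 1 stacked bar for each library. *PRR7* and *PRR9* fill most of both bars of replicate 1 (71.7% and 23.0% in WT), and *TOC1* (36.2% in WT), *PRR5* (16.9%) and *PRR3* (18.1%) take most of both bars of replicate 2.

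Each member differed less between the genotypes than between the replicates. Within replicate 1 every member was at the higher level in *ldl1 ldl2*, by 0.55 for *PRR9*, 0.18 for *PRR7*, 0.23 for *PRR5*, 0.15 for *PRR3* and 0.19 for *TOC1* on the log2(FPKM + 1) scale. Within replicate 2 *PRR9* and *PRR5* were again at the higher level in *ldl1 ldl2*, by 0.38 and 0.32, *PRR7* was at the same level within 0.0024, and *PRR3* and *TOC1* were at the lower level, by -0.27 and -0.31. As ratios of FPKM, *PRR9* was 1.502-fold and 1.343-fold higher in the mutant in replicates 1 and 2, and *TOC1* stood at 1.18 and 0.807 times the WT level. *PRR9* thus had the same direction in both replicates and *TOC1* opposite directions, *PRR7* had none in replicate 2, and for *PRR5* and *PRR3* the sign in replicate 1 rests on levels of 0.189 FPKM or less, with a listed 0 for *PRR5*. The genotypes were each compared in 1 library against 1, so that these within-replicate values have no test.

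**Figure D4:**
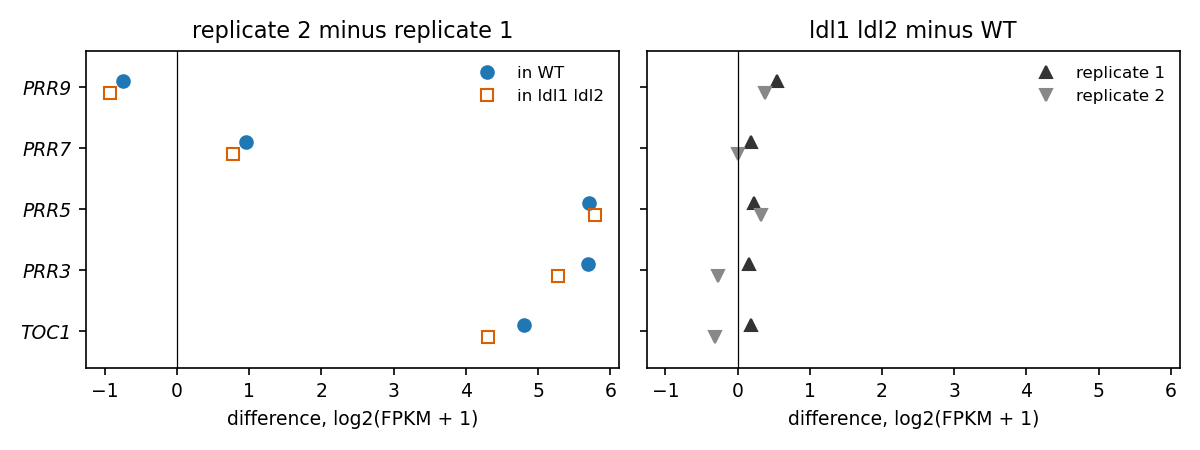
Differences of the 5 members in log2(FPKM + 1), on 1 scale in both panels, with a point for each pair of libraries. The left panel gives replicate 2 minus replicate 1 in WT (filled circles) and in *ldl1 ldl2* (open squares), reaching 5.79 for *PRR5*, and the right panel gives *ldl1 ldl2* minus WT in replicate 1 (upward triangles) and in replicate 2 (downward triangles), all between -0.31 and 0.55.

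None of the members passed limma between the genotypes over all loci, where 0% of the loci did (lowest adjusted p = 0.755 from limma, with 394 loci at an unadjusted p under 0.05). The mean differences of *ldl1 ldl2* minus WT were 0.47 for *PRR9* (95% interval -0.80 to 1.73), 0.09 for *PRR7* (-1.22 to 1.41), 0.28 for *PRR5* (-7.10 to 7.65), -0.06 for *PRR3* (-7.11 to 6.99) and -0.06 for *TOC1* (-5.94 to 5.81). In this comparison the gap between the replicates counts as spread, and for *PRR5*, *PRR3* and *TOC1* the intervals are wide in both directions, so that a miss of the threshold does not show that the genotypes were alike. In both replicates a 2-fold higher level in the mutant was found for 1.4% of all loci and for no member, and a 2-fold lower level for 0.148% of all loci and for no member. With 1 library left out, genotype and replicate number are no longer balanced, and part of the replicate difference enters the genotype difference. *PRR9* stayed on the higher side in the mutant each time (0.0046 to 0.93). *PRR7* turned to -0.38 without WT replicate 1 and to -0.29 without *ldl1 ldl2* replicate 2, and *PRR5* turned to -2.57 and -2.62. *PRR3* turned to 2.79 without WT replicate 2 and to 2.58 without *ldl1 ldl2* replicate 1, and *TOC1* turned to 2.34 and 2.095, none of them past the test.

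Other genes of the clock, taken by role from lists drawn up from general knowledge of the clock, differed between the replicates in both directions. Of 17 other clock genes tested, 7 passed limma as higher in replicate 2 and 5 as lower, where 6.58% and 5.14% of all loci did. *LHY*, *ELF4*, *BOA* and *FKF1* reached the minimum for testing through 1 replicate number only. They could reach it only by differing between the replicate numbers, so that their calls add little to these counts. Fits of these genes without a minimum are not given here. Both morning MYB genes that PRR proteins repress were lower. *LHY* gave 22.9 FPKM (WT) and 8.92 FPKM (mutant) in replicate 1 and 0.236 and 0.380 FPKM in replicate 2, a difference of -3.56 in log2(FPKM + 1) (adjusted p = 0.0122 from limma). *CCA1* differed by -2.88 (adjusted p = 0.0286 from limma), with -3.41 in WT and -2.35 in *ldl1 ldl2*. In replicate 1 *CCA1* was at the lower level in *ldl1 ldl2* by -1.55 and *LHY* by -1.27, while *PRR9*, *PRR7* and *TOC1* were at the higher level there, by the 0.55, 0.18 and 0.19 given above, and *PRR5* and *PRR3* were too low to compare. In replicate 2 the same differences were -0.49 for *CCA1* and 0.16 for *LHY*.

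Of the 7 genes of the RVE8 group and its LNK coactivators, which activate *PRR5* and *TOC1*, 3 passed as lower in replicate 2 and 1 as higher. Of all loci 5.14% passed as lower and 6.58% as higher. *LNK4* differed by -3.01 (adjusted p = 0.00515 from limma), *LNK3* by -2.52 (adjusted p = 0.0044) and *LNK2* by -2.15 (adjusted p = 0.0184). *RVE8* differed by -1.92 and did not pass (adjusted p = 0.0595), and its level was 15.8 FPKM (WT) and 5.93 FPKM (mutant) in replicate 1 and 2.60 and 1.28 FPKM in replicate 2. The gene that was higher was *RVE6* (0.95, adjusted p = 0.0473), named after its value was seen. All 4 genes of the evening complex list were higher in replicate 2, as *PRR5*, *PRR3* and *TOC1* were. *ELF4* gave 0.328 FPKM (WT) and 0.526 FPKM (mutant) in replicate 1 and 131 and 147 FPKM in replicate 2 (difference 6.61, adjusted p = 4.15e-04 from limma), *LUX* differed by 4.65 (adjusted p = 0.00317), *ELF3* by 2.94 (adjusted p = 0.00658) and *BOA*, a close relative of *LUX*, by 2.46 (adjusted p = 0.00732).

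Proteins of the ZTL family bind TOC1 and PRR5 and mark them for degradation, with GI as a partner. *FKF1* (6.17, adjusted p = 4.15e-04 from limma) and *GI* (4.01, adjusted p = 0.00203) were higher in replicate 2, while *ZTL* itself differed by 0.38 (adjusted p = 0.210) and *LKP2* by 0.53 (adjusted p = 0.177). No gene of these 4 lists was 2-fold different between the genotypes in both replicates. Of all loci 1.4% were 2-fold higher in the mutant in both and 0.148% were 2-fold lower.

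**Figure D5:**
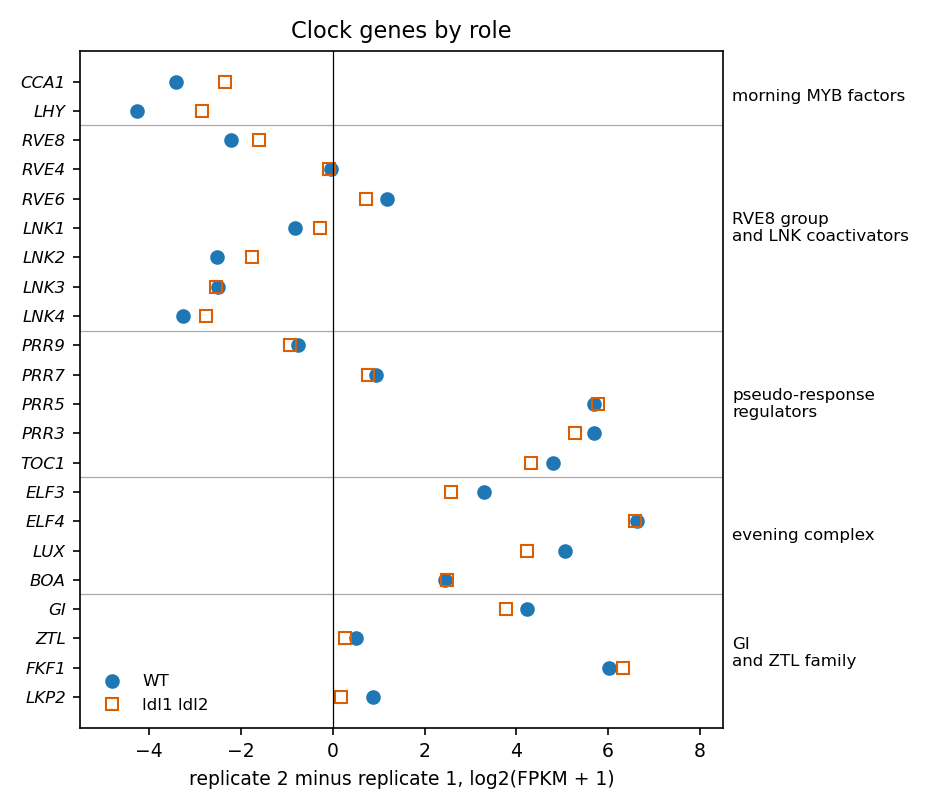
Difference of replicate 2 minus replicate 1 in log2(FPKM + 1) for the 5 PRR genes and 17 other clock genes, grouped by role, with filled circles for WT and open squares for *ldl1 ldl2*. The morning MYB genes lie to the left of 0 (*LHY* at -4.27 in WT), the evening complex to the right (*ELF4* at 6.63 in WT), and the PRR genes run from *PRR9* at -0.75 to *PRR5* at 5.70 in WT.

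Genes whose products act on or with PRR proteins differed less between the replicates than *PRR5*, *PRR3* and *TOC1*. Of 4 regulators of PRR transcription or splicing (*LWD1*, *LWD2*, *PRMT5* and *SKIP*) and of 9 partners (the TOPLESS co-repressors that PRR9, PRR7 and PRR5 recruit, histone deacetylases and *WNK1*, a kinase that phosphorylates PRR3 among them), none passed between the replicates in either direction. Of all loci 6.58% passed as higher and 5.14% as lower, so that a count of none among so few genes says little. The largest difference in these lists was 0.95 for *WNK1* (adjusted p = 0.139 from limma), beside 0.86 for the member *PRR7*. *HDA6* differed by -0.14 (adjusted p = 0.623 from limma). Of 9 genes that PRR proteins repress, 2 were higher in replicate 2, against 6.58% of all loci, and 1 was lower, against 5.14%. *CBF3* and *CDF5* reached the minimum for testing through 1 replicate number only, so that their calls add little to these counts. Those that were higher are cold-response regulators, *CBF3* (4.26, adjusted p = 0.0041 from limma) and *CBF1* (4.05, adjusted p = 0.0229), with *CBF2* at 2.64 (adjusted p = 0.0848), and the one that was lower was *CDF5* (-1.16, adjusted p = 0.0394), a repressor of flowering. Between the genotypes *CBF1* and *CBF2* also stood more than 2-fold higher in the mutant in each replicate, with neither past the test. The differences were 1.481 and 1.5002 for *CBF1* and 1.78 and 1.75 for *CBF2*. *CBF3* was higher by 0.597 and 0.457 on the same scale, which is under 2-fold. Of all loci 1.4% were 2-fold higher in the mutant in both replicates. In WT replicate 1 *CBF1* was at 0.0888 FPKM.

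Of 4 pseudo-response regulator genes outside the clock set, the 2 that reached the minimum for testing did not share the pattern. *APRR2* differed by 0.11 between the replicates (adjusted p = 0.775 from limma) and *PRR8* by -0.18 (adjusted p = 0.554). *PRR6* was listed at 0 in every library and *PRR4* reached 0.0958 FPKM in WT replicate 2 only, so that both were too low to show or lack a pattern. None of 4 reference genes passed between the replicates, with *UBQ10* at -0.55 (adjusted p = 0.127 from limma), *ACT2* at -0.37 (adjusted p = 0.233), *PP2AA3* at 0.35 (adjusted p = 0.251) and *TIP41L* at 0.19 (adjusted p = 0.549).

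The loci closest to each member were sought among 9415 loci with a mean of at least 10 FPKM, by the same root mean square distance over 4 libraries, which is a description of 4 points. *COL9*, a CCT-domain gene of the *CONSTANS*-like family, was the nearest to *PRR3* at 0.0805 and the second nearest to *PRR5* at 0.248, with 0.476 FPKM (WT) and 0.419 FPKM (mutant) in replicate 1 and 67.5 and 59.1 FPKM in replicate 2. *AT4G33467* was the nearest to *PRR5* at 0.135 and *FKF1* the third at 0.266. *AT5G50450*, *AT1G17665* and *AT5G15190* were the nearest to *TOC1* at 0.173 to 0.190. The remaining neighbours of *PRR3*, at 0.211, were *AT3G28290* and *AT3G28300*, both named *AT14A*, which were listed with the same values in each library and may share reads. *PRR7* lay closest to *NRPE5* at 0.0157, a gene of RNA polymerase V, then to *AT1G08210* and *AT5G38220*, and *PRR9* lay closest to *AT4G02200* at 0.0344, then to *AT5G62570* and *PAL2*, an enzyme of phenylpropanoid synthesis at 0.0461. Small distances to *PRR7* and *PRR9* come easily, since many loci differ little between the libraries.

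Of the markers of other tissues, *SEP3* (2.18, adjusted p = 0.0132 from limma) and the root gene *PYK10* (1.82, adjusted p = 0.0463) were higher in replicate 2, as *TOC1*, *PRR5* and *PRR3* were. Both passed the minimum for testing only through their levels in replicate 2 and the other 5 did not pass it, so that their direction was largely set by the filter. Of the 4 leaf markers *RBCS3B* was lower (-1.56, adjusted p = 0.0336). Their part in the PRR values was not tested. The number of loci called between the replicates also fell in each fit with a library left out. A replicate number then keeps a single library and fewer values set the spread, so that the fall does not show that calls rested on that library. Without WT replicate 2, 30 loci passed as higher in place of 1112 and 3 as lower in place of 869, and without WT replicate 1 or *ldl1 ldl2* replicate 2 the counts were 208 and 170 higher and 82 and 108 lower. *PRR5*, *PRR3* and *TOC1* passed as higher in each of these fits and without *ldl1 ldl2* replicate 1, with adjusted p between 0.00795 and 0.0418 from limma.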

How the data were processed

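RNA of 4 leaf libraries (2 for each genotype) was sequenced by the authors from both fragment ends (100 bp, strand-specific mRNA kit), aligned with TopHat2 and Bowtie2 and quantified with Cufflinks on TAIR10 gene models as FPKM, each library on its own. Trimmomatic 0.33 is listed in the submitters' processing notes, with other versions not given in the sources used here. The deposited FPKM values do not show the read depth. Values above 0 went down to 1.45e-234 FPKM, so that they are no multiples of whole reads, and no count test was run.

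Log2(FPKM + 1) was taken without rescaling for 16905 loci with a mean of at least 1 FPKM and fitted with limma 3.58.1 in R 4.3.3 (mean-variance trend, two-sided, Benjamini-Hochberg adjustment over all loci at 0.05), once with replicate number and once with genotype as the only term. The fits were tested on simulated data. For the genotype fit these held no difference between the replicates, so that they do not show how that fit behaves with the replicate gap seen here. Alternatives were a pseudocount of 0.1, median scaling, no filter, no trend, the other factor as a second term and leaving out each library. The text names the 5 members, at most 4 genes of a list, those with the largest replicate difference first, and the 3 loci nearest to each member. *HDA6*, *RVE6*, *AT2S1* and *VGD1* fall outside that rule and were chosen after their values were seen. Members, lists and tests were chosen with earlier results of these data known. Names, positions and upstream sequence were taken from RefSeq's TAIR10.1, whose locus tags matched 31893 loci.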

Additional observations from a re-analysis of the deposited data

Results flagged for a closer look

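*PRR3* and *TOC1* were singled out because the difference between the genotypes had opposite signs in the replicates. In log2(FPKM + 1), *ldl1 ldl2* minus WT was 0.155 in replicate 1 and -0.270 in replicate 2 for *PRR3*, and 0.186 in replicate 1 and -0.307 in replicate 2 for *TOC1*. The sign for *PRR3* in replicate 1 rests on 0.0678 against 0.189 FPKM. With 1 library for each genotype and replicate number, the difference between the replicates was not tested.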

How the results depend on the processing

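The replicate differences of *PRR5*, *PRR3* and *TOC1* kept their direction and passed in every alternative run. Ranges with 1 library left out were 5.58 to 5.90 for *PRR5*, 5.35 to 5.62 for *PRR3*, 4.40 to 4.71 for *TOC1*, 0.771 to 0.953 for *PRR7*, which then never passed, and -1.11 to -0.562 for *PRR9*. *PRR7* also lost its call with median scaling (0.722) and without a filter (0.862), and *PRR9* gained one with genotype as a second term (-0.837). The loci called as higher and lower in replicate 2 numbered 454 and 288 without a filter, 2238 and 1806 with genotype as a second term, and 30 to 770 and 3 to 664 with 1 library left out.

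Between the genotypes, leaving out a library moved *PRR9* between 0.0046 and 0.928, *PRR7* between -0.384 and 0.568, *PRR5* between -2.62 and 3.17, *PRR3* between -2.91 and 2.79 and *TOC1* between -2.46 and 2.34, and 0 to 3 loci passed. With a pseudocount of 0.1 *PRR3* turned to 0.254, and 87 loci in place of 25 were at least 2-fold lower in *ldl1 ldl2* in both replicates. With the replicate number as a block 348 loci passed in place of 0 but no member did. The lowest adjusted p among members was then 0.591, for *PRR9* at 0.466 (95% interval -0.051 to 0.983), and for *TOC1* the interval was -0.600 to 0.478. Deviations from the genotype means correlated between libraries of the same number (r = 0.726 across genes), but there are only 2 pairs and the labels give the shared number no meaning. With a library left out, genotype and replicate number are no longer balanced, and part of the replicate difference enters the genotype difference. With the block, the gap between the replicates no longer counts as spread. The cause of the other changes was not tested. The unknown depth limits what can be said of *PRR5* and *PRR3* in replicate 1.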
